A study of Drosophila melanogaster
Schmidtea mediterranea with 2 samples.

Results

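Solitary H3K4me3 peaks are regions of the planarian genome where a single marked block of ordinary width stands far from any other. They were chosen by position and width alone from the H3K4me3 Mnase-ChIP peak list of planarian stem cells. A listed peak was taken when it was over 300 bp and under 2000 bp wide and had a listed peak on both sides of the same scaffold, each more than 50 kb away from edge to edge. Of the 14553 listed peaks, 1705 met this rule, or 11.7% (95% Wilson interval 11.2% to 12.3%). They made up 13.9% of the 12284 peaks in that width range and 14.7% of the 11560 of these that had a peak on both sides. A further 724 peaks of the width range were the first or the last on their scaffold and could not be taken.

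The chromatin came from X1 cells, the FACS gate of Hoechst-stained cells that is lost after lethal irradiation and holds the dividing stem cells, sorted from untreated adult asexual *Schmidtea mediterranea*. A pool of 800 K X1 cells and a larger number of Drosophila S2 cells, a cultured embryonic line, was digested with micrococcal nuclease (Mnase) to mononucleosomes. The pool gave 1 H3K4me3 ChIP library and 1 library of input DNA. There are no replicates, so intervals below cover counting error only, peaks were not treated as replicates, and no p-value was computed. The list holds neither read counts nor peak heights, so depth is unknown, and it holds no gene names, so X1 and S2 markers could not be examined. All listed scaffolds carry planarian names, and S2 reads that align to planarian sequence were not tested.

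H3K4me3 is the trimethylated form of lysine 4 on histone H3. Enzymes of the Set1 and MLL families place it on nucleosomes around the start sites of transcribed genes, and in most animals a typical active promoter carries a sharp block of it. Wider blocks that run into gene bodies are known from genes of cell identity and from tumor suppressors. The spacing of the blocks along a chromosome therefore follows, in general, the spacing of active start sites. Which genes lie at the peaks below is not given, because gene models and sequence of this assembly were not used here.

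The solitary peaks were wider than the other peaks of the same width range. Their median width was 1079 bp (95% order-statistic interval 1054 to 1101 bp, n = 1705), against 974 bp (963 to 986 bp, n = 10579) for the other peaks, a difference of 105 bp or 10.8%. Against all other peaks, the gap was larger at the lower end of the distribution. The 25th percentile was 791 bp for solitary peaks and 642 bp for the others, a difference of 149 bp. At the 75th percentile the widths were 1327 bp for solitary peaks and 1263 bp for the others, a difference of 64 bp. Other peaks whose nearest peak lay 20 to 50 kb away had 25th and 75th percentiles of 779 and 1290 bp. Against these, the gap was not larger at the lower end. The distributions of solitary and all other peaks overlapped over the whole range, with an SD of 380 bp for solitary peaks and 407 bp for all others. The rule drew on the same peak list as the widths, so this difference is a description without a test.

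**Figure D1:**
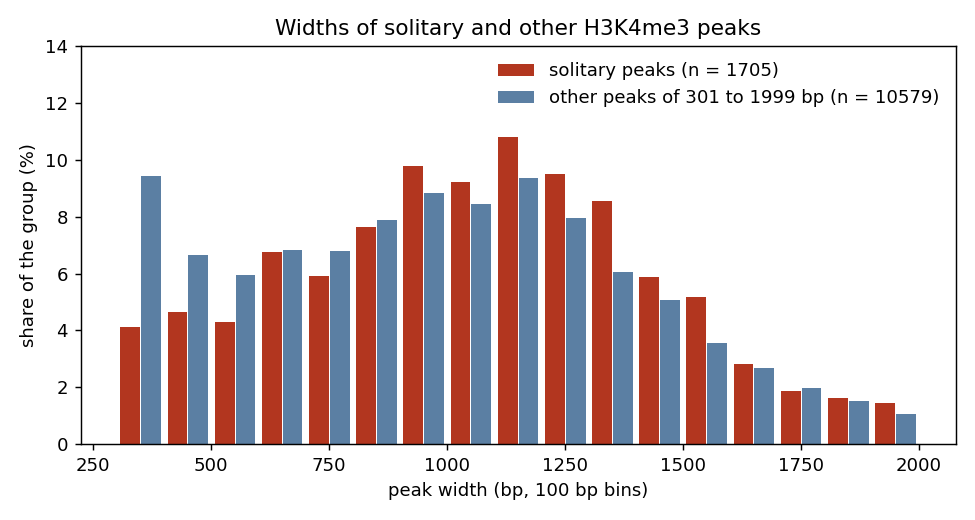
Share of each group (y axis, percent) in 100 bp bins of peak width (x axis, bp), for the 1705 solitary peaks (red, left bar of each pair) and the 10579 other peaks of that width range (blue, right bar). The lowest bin, up to 400 bp, holds 4.11% of the solitary peaks and 9.42% of the others, and both groups are fullest or nearly so in the bin that ends at 1200 bp.

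Narrow peaks were a smaller part of the solitary peaks than of all other peaks. Of the solitary peaks 149 of 1705, or 8.74% (Wilson 7.49% to 10.2%), were at most 500 bp wide, against 1702 of 10579 of the other peaks, or 16.1% (15.4% to 16.8%). The share was likewise low, at 9.04% (8.17% to 9.99%), for other peaks whose nearest peak lay 20 to 50 kb away, and was 29.6% (27.6% to 31.8%) for those within 0.5 kb of another peak. The class above 1000 and up to 1500 bp, a width of several nucleosomes, held 749 solitary peaks or 43.9% (41.6% to 46.3%), against 36.9% (36.0% to 37.9%) of all others. This share was not computed for the other peaks at 20 to 50 kb. Their middle 50% ran from 779 to 1290 bp, close to the 791 to 1327 bp of the solitary peaks. The class above 500 and up to 1000 bp held similar parts of both groups, 34.4% of the solitary peaks and 36.2% of the others, and their intervals overlapped. Above 1500 bp the shares were 13.0% of the solitary peaks (11.4% to 14.6%) and 10.7% of the others (10.2% to 11.3%).

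Turning the comparison round, the share of peaks that stood alone rose with width up to about 1 kb and was level above it. Among peaks of over 300 to 500 bp, 8.05% were solitary (6.90% to 9.38%). The share was 13.3% (12.3% to 14.3%) for peaks of over 500 to 1000 bp, 16.1% (15.1% to 17.2%) for over 1000 to 1500 bp and 16.3% (14.4% to 18.3%) for over 1500 bp and under 2000 bp. The same distances were met by 97 of 1694 peaks of 300 bp or less, 5.73% (4.72% to 6.94%), and by 75 of 575 peaks of 2000 bp or more, 13.0% (10.5% to 16.0%). These 172 peaks lie outside the width range and are not counted as solitary peaks here. The interval for these broad domains overlapped with that of each class of the width range above 500 bp.

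**Figure D2:**
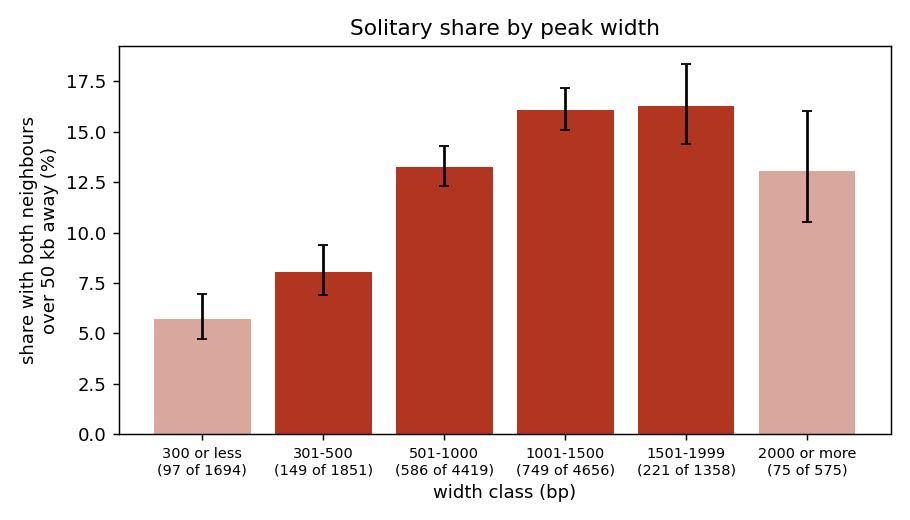
Share of listed peaks whose neighbours on both sides lie more than 50 kb away (y axis, percent) by width class (x axis, bp), with the counts under each bar and 95% Wilson intervals. Dark bars are the width range of the solitary peaks and pale bars lie outside it; the share is 5.73% for the narrowest class and between 13.0% and 16.3% for all classes above 500 bp.

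Part of the width difference lay in peaks that had a close neighbour. Among peaks of the width range with a peak on both sides, those within 0.5 kb of another peak had a median width of 743 bp (718 to 775 bp, n = 1771). The median was 878 bp (815 to 965 bp, n = 340) at 0.5 to 1 kb, 965 bp (842 to 1058 bp, n = 254) at 1 to 2 kb and 924.5 bp (874 to 966 bp, n = 676) at 2 to 5 kb. It was 981 bp (940 to 1023 bp, n = 1059) at 5 to 10 kb, 1009 bp (989 to 1029 bp, n = 1960) at 10 to 20 kb and 1048 bp (1031 to 1066 bp, n = 3795) at 20 to 50 kb. Against that last set, solitary peaks were wider by 31 bp at the median, and the intervals of both medians overlapped. With listed peaks no more than 1000 bp apart joined into 1 region before the rule was applied, the medians were 1103 bp for solitary regions and 1040 bp for the others, a difference of 63 bp in place of 105 bp. Whether peak calling splits single marked domains at short gaps was not tested.

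Among the solitary peaks, width did not follow distance. The median was 1079 bp (1046 to 1104 bp, n = 1116) for solitary peaks whose nearer neighbour lay 50 to 75 kb away, 1063 bp (998 to 1113 bp, n = 359) at 75 to 100 kb, 1122 bp (1053 to 1187 bp, n = 188) at 100 to 150 kb and 997.5 bp (911 to 1206 bp, n = 42) beyond that. All of these intervals overlap, and each also overlaps with the 1031 to 1066 bp of the other peaks at 20 to 50 kb. A change at the 50 kb limit is therefore not shown. Over the 1705 solitary peaks, which come from 1 library, Spearman's rho between width and the nearer distance was -0.00087, and with the farther distance it was 0.025.

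**Figure D3:**
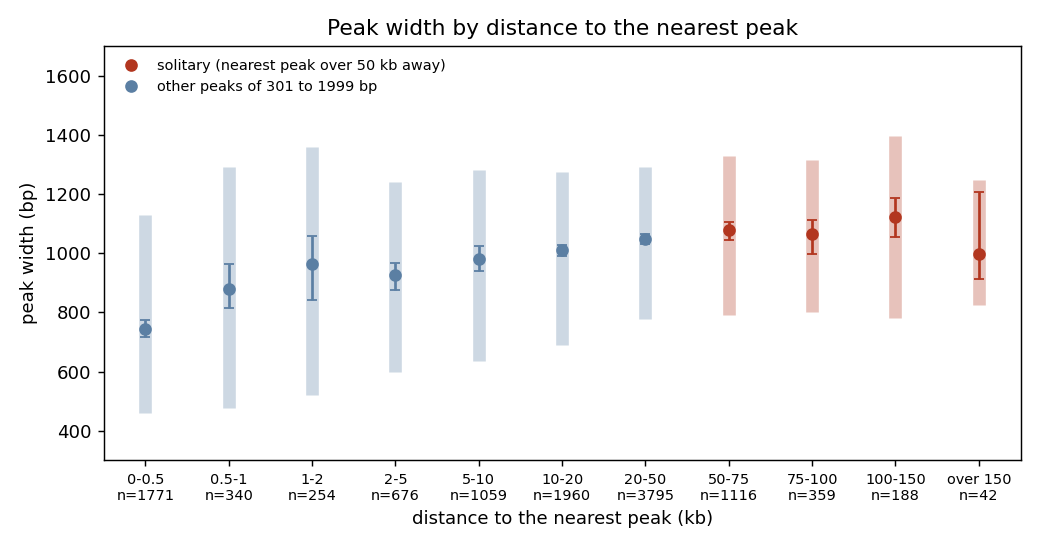
Peak width (y axis, bp) by distance to the nearest peak (x axis, kb) for peaks of over 300 and under 2000 bp with a peak on both sides. Points are medians with 95% order-statistic intervals and pale bars the middle 50% of peaks, in blue for other peaks and in red for solitary peaks; medians run from 743 bp in the closest class to 1048 bp at 20 to 50 kb, and the solitary classes lie between 997.5 and 1122 bp.

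The widest solitary peaks stopped just short of the upper limit of the rule. On scaffold 47 the peak at positions 4115868 to 4117865 measured 1998 bp, with its neighbours 53.4 kb and 86.1 kb away. A peak of equal width on scaffold 250, at positions 465621 to 467618, had a broad domain of 2259 bp as 1 of its neighbours, 72.1 kb away, and a narrow peak of 261 bp as the other, 89.0 kb away. The peaks of 1995 bp at 4759410 to 4761404 on scaffold 35 and at 1908739 to 1910733 on scaffold 84 had nearer neighbours 69.4 kb and 131.6 kb away. The fifth, of 1991 bp at 1490966 to 1492956 on scaffold 99, passed the distance rule narrowly, with a neighbour 50.8 kb away. Only 25 solitary peaks exceeded 1900 bp, so these are the far tail of the group. Just beyond the limit, the equally isolated peaks at 772679 to 774684 on scaffold 204 and at 14103487 to 14105496 on scaffold 1 were 2006 and 2010 bp wide.

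At the other end, the narrowest solitary peaks lay just above the lower limit of the rule. The peak at 1582875 to 1583175 on scaffold 45, just over 300 bp wide, lay between neighbours of 1449 and 1277 bp. On scaffold 224 a peak of 302 bp, at 191539 to 191840, was followed at 71.0 kb by a peak of 1014 bp. The peak of 303 bp at 322060 to 322362 on scaffold 254 had a broad domain of 2401 bp as a neighbour, 83.8 kb away. Scaffold 39 held a peak of 308 bp at 965918 to 966225, which had an unmarked stretch of 312.5 kb on its lower side and of 73.9 kb on its upper side. The fifth was 309 bp wide and lay on scaffold 17, at 5065874 to 5066182. All 5 had both neighbours at least 56.8 kb away, where the rule asks for more than 50 kb. The isolated peaks nearest to the lower width limit from below were 299 bp wide, at 617779 to 618077 on scaffold 141, and 297 bp wide, at 7942730 to 7943026 on scaffold 5.

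The unmarked stretches that flank the solitary peaks are what the rule selected on, and they are given as a description. The nearer neighbour lay at a median of 66.7 kb and the farther at 109.3 kb, so that the median sum of both stretches was 180.7 kb, with a middle 50% from 145.7 to 238.8 kb. For the 9855 other peaks with a peak on both sides these medians were 14.4, 54.5 and 73.6 kb. A solitary peak covered a median of 0.543% of the stretch between its neighbours, against 1.27% for the others. Most nearer distances lay close to the limit, since 589 solitary peaks (34.5%) had both neighbours more than 75 kb away, 230 (13.5%) more than 100 kb, 42 (2.46%) more than 150 kb and 10 more than 200 kb. Both flanks were of similar size at 433 peaks (25.4%), where the farther was at most 1.2 times the nearer. At 472 peaks (27.7%) the farther was at least 2 times the nearer, and at 17 at least 5 times. The nearer neighbour was on the lower-position side at 844 peaks, 49.5% (47.1% to 51.9%). The longest flank ran for 882.6 kb, above a peak of 550 bp at 302006 to 302555 on scaffold 76.

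**Figure D4:**
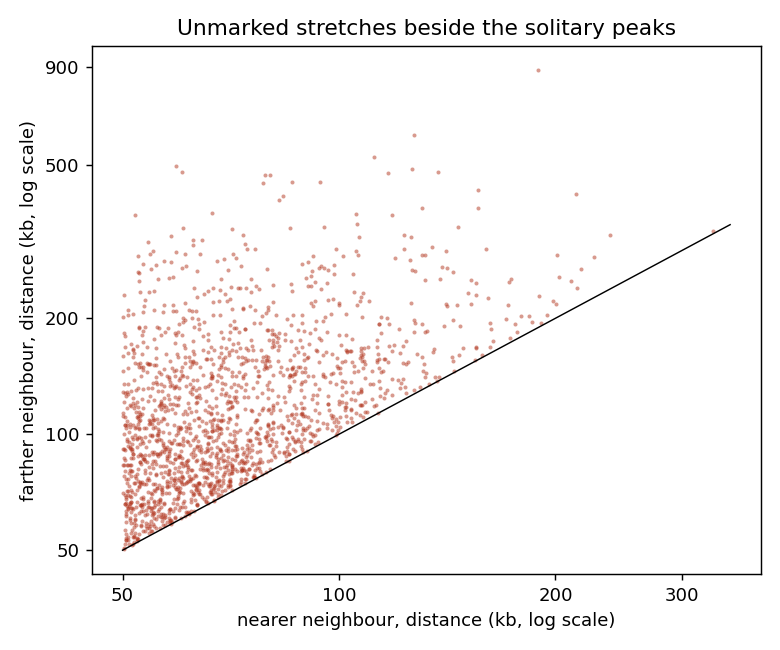
Distance to the farther neighbour (y axis, kb, log scale) against distance to the nearer neighbour (x axis, kb, log scale); each point is 1 of the 1705 solitary peaks and the line marks equal distances. The points crowd towards the 50 kb limit, 230 lie beyond 100 kb on the x axis, and the largest values are 331.5 kb for the nearer and 882.6 kb for the farther neighbour.

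The most isolated solitary peak lay on scaffold 39, at positions 2139604 to 2141318. It was 1715 bp wide, with 336.1 kb without a listed peak below it and 331.5 kb above it, and it stood alone in a stretch of 669.4 kb. No other solitary peak had both neighbours more than 300 kb away. The next, of 1236 bp at 3672497 to 3673732, was on the same scaffold, 238.3 and 328.3 kb from its neighbours. Scaffold 166 followed with a peak of 955 bp at 979301 to 980255 and a nearer distance of 226.1 kb. On scaffold 78 the peak at 343754 to 345049 was 1296 bp wide and its nearer neighbour lay 217.4 kb away. On scaffold 72 the peak at 1625126 to 1626445 was 1320 bp wide, 214.7 kb from its nearer neighbour. These 5 peaks were all of middle to large width.

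The remaining 5 of the 10 most isolated peaks had a wider range of widths. The peak at 325504 to 326242 on scaffold 215 measured 739 bp and had flanks of 213.5 and 420.8 kb. A peak of 471 bp stood at 5004059 to 5004529 on scaffold 21, 210.0 kb from its nearer neighbour. Scaffold 8 held 1 of 911 bp at 3638080 to 3638990, with 202.4 kb on its shorter side. The peak at 1851544 to 1853528 on scaffold 23 was 1985 bp wide, almost at the upper limit, and 201.1 kb from its nearer neighbour. The last, at 2534908 to 2535241 on scaffold 84, was only 334 bp wide, with 200.7 kb on its shorter side. Widths among the 10 most isolated peaks thus ran from 334 to 1985 bp, nearly the whole range of the group.

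The 50 kb limit cut through a continuous range of distances. The solitary peaks closest to it had their nearer neighbour 50006 bp away (scaffold 1, 11416613 to 11417899, 1287 bp wide), 50017 bp away (scaffold 19, 5179627 to 5180333, 707 bp wide) and 50085 bp away (scaffold 81, 1115869 to 1116509, 641 bp wide). Just outside it were peaks at 49974 bp (scaffold 44, 963168 to 964908, 1741 bp wide), 49959 bp (scaffold 124, 919800 to 920422, 623 bp wide) and 49925 bp (scaffold 125, 422529 to 422858, 330 bp wide). Widths on either side of the limit overlapped.

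The sparse surroundings of a solitary peak did not, for the most part, extend past its neighbours. The rule fixes the first gap on each side but not the gap beyond the neighbouring peak. That second gap had a median of 35.6 kb (34.2 to 37.7 kb, 3332 gaps) for solitary peaks and 34.8 kb (34.0 to 35.5 kb, 19185 gaps) for the other peaks with a peak on both sides. It exceeded 50 kb in 37.0% of cases (35.4% to 38.7%) for solitary peaks and in 36.5% (35.9% to 37.2%) for the others. A gap of at most 1 kb beyond the neighbour, as in a cluster of peaks, was found in 11.6% of cases (10.6% to 12.8%) for solitary peaks and in 11.1% (10.7% to 11.6%) for the others. Further out a small excess appeared. The gap after that, the third from the peak, exceeded 50 kb in 40.4% of cases (38.7% to 42.1%) for solitary peaks and 36.0% (35.3% to 36.6%) for the others. For the gaps at places 4 to 7 the shares lay between 38.4% and 40.9% for solitary peaks and between 35.6% and 36.1% for the others. Neighbouring peaks share many of these gaps, so the intervals are too narrow. Within 500 kb on either side, where the list reaches that far, solitary peaks had a median of 16 other peaks (13 to 20 for the middle 50%, n = 1150), against 19 (16 to 24, n = 6315) for the others. Part of that difference follows from the rule.

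The neighbours of solitary peaks were wider than those of other peaks in general, but close in width to those of peaks whose nearest peak lay 20 to 50 kb away. Their median width was 1010.5 bp (990 to 1035 bp, 3410 neighbours), against 937 bp (928 to 944 bp, 19710 neighbours) for the neighbours of other peaks and 1000 bp (990 to 1014 bp) for those of the peaks at 20 to 50 kb. Of the neighbours of solitary peaks, 9.24% were 300 bp wide or less (8.31% to 10.3%) and 4.69% were broad domains of 2000 bp or more (4.03% to 5.45%). For the neighbours of other peaks the shares were 11.7% (11.3% to 12.2%) and 3.76% (3.51% to 4.04%). For those of the peaks at 20 to 50 kb they were 8.39% (7.79% to 9.04%) and 4.08% (3.66% to 4.55%). Both of these intervals overlapped with those of the neighbours of solitary peaks. A peak can be a neighbour on both sides and is then counted for each.

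Some solitary peaks followed each other directly. Of the 1705, 777 (45.6%) had no solitary peak next to them, 494 stood in 247 pairs, 240 in 80 runs of 3, and 194 in longer runs. A solitary peak brings 1 long gap to its neighbour, so such runs are favoured by the rule. Of the 3410 neighbours of solitary peaks 1116 were themselves solitary, 32.7% (31.2% to 34.3%), against 32.4% (31.2% to 33.6%) of the 5617 peaks that lay across a gap of over 50 kb from another peak of the width range. These intervals overlap. Each of the 558 adjacent pairs of solitary peaks is counted from both ends, so the first interval is too narrow. The longest runs had 6 solitary peaks and were found 5 times, on scaffolds 7, 19, 29, 117 and 124. On scaffold 7 the run spanned positions 7725240 to 8072708, with peaks of 1114, 1450, 1226, 1829, 1516 and 961 bp and gaps of 50.8 to 96.3 kb between them. The run on scaffold 124 was the longest in bp, at 1007350 to 1835251, with peaks of 383, 1086, 1116, 1152, 1131 and 1327 bp and a gap of 345.9 kb between the second and the third. Scaffold 117, at 166881 to 580975, instead alternated between narrow and wider peaks, with 504, 1334, 395, 1147, 561 and 894 bp. The other two runs lay at 224794 to 799378 on scaffold 19, with widths from 405 to 1399 bp, and at 3636020 to 4101754 on scaffold 29, with widths from 762 to 1563 bp. The widths of solitary peaks that follow each other were hardly related. Over the 558 such pairs Spearman's rho was 0.073 and the median difference in width was 358 bp, against 0.041 and 381 bp over 7704 pairs of neighbouring other peaks.

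Solitary peaks were spread over 269 of the 449 listed scaffolds. Scaffolds with fewer than 3 peaks cannot hold one, and of the 363 with at least 3 peaks 269 did. Among the 260 scaffolds with at least 10 peaks, 25 had none. A scaffold with any had a median of 4, 58 scaffolds had just 1, and 61 had 10 or more. The number per scaffold went with its length, taken from the first to the last listed peak, with a Spearman's rho of 0.86 over the 260 scaffolds with at least 10 peaks. The 10 scaffolds richest in solitary peaks held 304 of them, or 17.8%, and 14.6% of the other peaks of the width range. These 10 were chosen by their number of solitary peaks, which favours the first share. The gaps that flank solitary peaks number 2852 and add up to 293.9 Mb, or 41.7% of the total length between listed peaks, while making up 20.2% of all gaps. The rule takes only long gaps, and all gaps over 50 kb together are 36.7% of the gaps and 75.1% of that length. Flanks of solitary peaks make up 55.1% of these long gaps and 55.5% of their length, with a median of 83.3 kb for the flanks and 83.5 kb for all gaps over 50 kb.

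**Figure D5:**
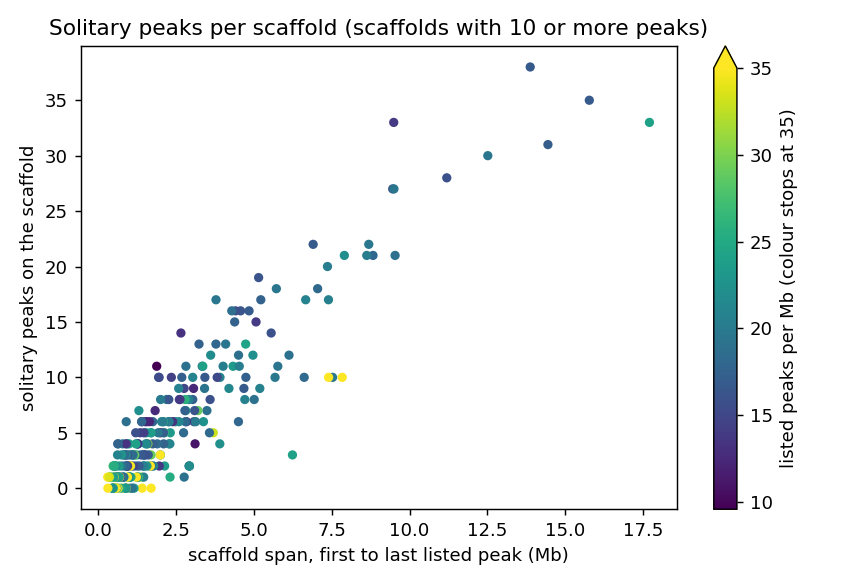
Solitary peaks on each scaffold (y axis) against the span from the first to the last listed peak (x axis, Mb), for the 260 scaffolds with at least 10 peaks; colour gives listed peaks per Mb. The number rises with span to 38 on scaffold 4, and scaffold 24, with 3 solitary peaks, lies below the other scaffolds of similar span.

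Density of marking differed among scaffolds. Over the whole list there were 2.37 solitary peaks per Mb. Among the 33 scaffolds with at least 100 peaks the value ranged from 0.481 per Mb on scaffold 24, with 3 solitary peaks, to 3.48 per Mb on scaffold 7, with 33. Scaffold 24 had 24.0 listed peaks per Mb, the same as scaffold 1, which had 33 solitary peaks or 1.86 per Mb. The 3 solitary peaks of scaffold 24, at 3173499 to 3174765, 3973128 to 3974703 and 5450348 to 5451290, were 1267, 1576 and 943 bp wide. Scaffolds of equal peak density thus differed in their number of solitary peaks. The scaffolds with at least 10 peaks but no solitary peak were led by scaffold 157 with 66 peaks, at 46.8 peaks per Mb, and scaffold 131 with 65 peaks, at 38.2 per Mb.

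Sorted by density, solitary peaks made up 21.4% (20.1% to 22.8%) of the peaks of the width range with a peak on both sides on the 86 sparsest scaffolds with at least 10 peaks, 14.4% (13.4% to 15.4%) on the 87 of middle density and 7.71% (6.85% to 8.68%) on the 87 densest. A fall of this kind follows from the rule. The width difference from the others was also present at each density. These others include peaks with a very close neighbour. Against other peaks with the nearest peak 20 to 50 kb away, the difference over all scaffolds was 31 bp, with overlapping intervals. The median width was 1086 bp for solitary peaks and 977 bp for the others on the sparsest scaffolds, 1057 and 994 bp on those of middle density, and 1107 and 961 bp on the densest, where 253 solitary peaks were found. At none of the 3 densities did the intervals of both medians overlap, but these intervals cover counting error only and are no test. The comparison with other peaks at 20 to 50 kb was not made by density. Whether a width difference from that set holds at each density is therefore not known. Within single scaffolds the difference from all others of the width range was less regular. Among 120 scaffolds with at least 5 peaks of each kind, the solitary median was the wider on 83 and the narrower on 37, with a median difference of 106 bp and a middle 50% from -29 to 237 bp. The extremes were scaffold 153, with 1537 bp for 5 solitary peaks and 893.5 bp for 10 others, and scaffold 59, with 511 bp for 7 solitary peaks and 993 bp for 44 others.

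Scaffold 4 held the most solitary peaks, 38 of its 231 listed peaks. They lay between positions 365725 and 13193592 and were 523 to 1872 bp wide, with a median of 1113 bp (892 to 1237 bp), against 1088.5 bp (952 to 1160 bp) for the 144 other peaks of the width range on the scaffold. The intervals of both medians overlapped. None of the 38 was 500 bp wide or less, and 22 were wider than 1000 bp. The narrowest, at 5723998 to 5724520, lay 50.8 kb from a peak of 219 bp, and the widest was at 5464340 to 5466211. The peak at 4719108 to 4719972, 865 bp wide, was the most isolated on this scaffold, with 122.7 kb on its shorter side. The longest flank, of 281.9 kb, followed the peak of 1425 bp at 365725 to 367149.

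Scaffold 2 came next with 35 solitary peaks of 263 listed peaks. Their widths ran from 314 to 1936 bp with a median of 989 bp (800 to 1134 bp), against 995.5 bp (918 to 1112 bp) for the 200 others of the width range. On this scaffold 4 solitary peaks were at most 500 bp wide and 17 were over 1000 bp. Its narrowest, at 7343881 to 7344194, was also well isolated, with flanks of 122.9 and 152.8 kb. The widest solitary peak of the scaffold, at 6558121 to 6560056, was followed 58.6 kb further on by its second narrowest, of 350 bp at 6618619 to 6618968, and preceded at 58.3 kb by a solitary peak of 1278 bp at 6498532 to 6499809. A stretch of 326.9 kb without a listed peak lay before that one. The largest shorter flank on the scaffold, 134.8 kb, was at 8859902 to 8861130, beside a peak of 1229 bp. Median nearer distances were 67.4 kb on scaffold 4 and 68.6 kb on scaffold 2, close to that of the whole group. With 38 and 35 solitary peaks, the intervals of the median widths are too wide to show or to deny a difference of the size seen over all scaffolds.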

How the data were processed

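The data are a single H3K4me3 Mnase-ChIP-seq experiment on X1 cells mixed with S2 cells, with 1 ChIP and 1 input library. The authors aligned reads to the Rink lab v4 *S. mediterranea* assembly with bowtie2 and determined peaks and their widths with MACS2. Tool versions, MACS2 options and the use of input as control are not given in the sources used here. The deposited list holds scaffold, start and end of each peak in bp, with 0 per-sample columns of signal. A weakly marked region below detection therefore cannot be told from an unmarked one. Starts were read as counted from 0 and are printed counted from 1.

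Width was taken as end minus start and distance from edge to edge, in Python 3.11.15 with numpy 2.4.6, pandas 2.3.3 and scipy 1.17.1. Figures used matplotlib 3.10.9. Medians have 95% order-statistic intervals and shares 95% Wilson intervals. The rule was tested on simulated data. The members, width classes and alternatives were chosen with earlier results of these data known. Peaks named are the 10 most isolated, the 5 widest and 5 narrowest, the 3 on either side of the distance limit, and those of the 2 scaffolds with the most, here by ranges and examples. Other named peaks, runs and scaffolds, and the classes of distance and of scaffold density, were chosen after values were seen. The Drosophila gene table supplied was not used.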

Additional observations from a re-analysis of the deposited data

How the results depend on the processing

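The distance limit moved most values. With 25 kb in place of 50 kb there were 4627 solitary peaks, the median of single flanks was 59.7 kb in place of 83.4 kb, and the median width of the other peaks was 939 bp. With 100 kb there were 230 solitary peaks on 113 scaffolds, with a median width of 1111 bp, a median flank of 138.6 kb, and 987 bp for the others. Merging peaks up to 1000 bp apart gave 1103 bp for solitary peaks and 1040 bp for the others. Dropping peaks of 300 bp or less gave 2005 solitary peaks and a median flank of 85.4 kb. Others with the nearest peak 20 to 50 kb away, a set chosen after seeing the data, had a median of 1048 bp. The other 27 values stayed within counting error or, for counts, within 1.5 times. Solitary peaks had the larger median width under 9 of 9 settings, by 31 to 126 bp. All 9 use the same peak list and are not independent. At the difference of 31 bp the intervals of both medians overlapped. The planned genome features were not run, because planarian sequence was not analysed. No paired analysis was possible because there is 1 library per condition and no test. Unknown depth limits what an unmarked stretch can show.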
